A study of Mus musculus with 2 samples.

Results

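The genes described here are Nmrk2, which encodes the nicotinamide riboside kinase NRK-2, and 9 genes around it on mouse chromosome 10: Eef2, Dapk3, Atcayos, Atcay, Matk, Mrpl54, Apba3, Tjp3 and Pip5k1c. They lie near Nmrk2 but are not simply the genes nearest to it. They were chosen with their read counts already known, and are 10 of the 24542 genes in the deposited table. Differences between the genotypes at these genes are therefore given as a description. How many of them each tool called is stated once, beside the share of all genes, and supports nothing. Total RNA came from left ventricular muscle of C57BL/6 males, 7 days after permanent ligation of the left anterior descending coronary artery near its origin. The muscle was remote from the infarct, the scar and its border zone having been removed. One group had the genotype Control (littermates) and the other the genotype NRK-2 KO, and mice of both groups had undergone the ligation. No source used here gives the age of the mice, the way the allele was made or the part of Nmrk2 that it removes. Reads of Nmrk2 may therefore come from a part that the allele keeps. The labels list 1 sample per genotype, whereas the table has columns for control 1 to 3 and KO 1 to 3. Whether these 6 libraries represent different animals is not stated, so standard deviations and p-values measure only the spread between libraries, which may be technical.

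NRK-2 phosphorylates nicotinamide riboside to nicotinamide mononucleotide, a step in the salvage route to NAD. Nmrk2 is known as a gene of striated muscle whose expression rises in the stressed or energy-starved heart. Its neighbours have unrelated roles. Eef2 encodes the elongation factor that moves the ribosome along the mRNA, Dapk3 a serine/threonine kinase that acts on myosin light chains, Mrpl54 a protein of the mitochondrial ribosome and Pip5k1c a kinase that makes phosphatidylinositol 4,5-bisphosphate. Apba3 encodes the adaptor protein Mint3 (X11-gamma), Tjp3 the tight junction protein ZO-3, Matk a tyrosine kinase of blood cells and brain related to Csk, and Atcay the brain protein caytaxin. Atcayos is a long non-coding RNA named for lying opposite Atcay.

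Depth ran from 22377348 to 33086384 counted reads per library. Of 10 left ventricular cardiomyocyte markers, none was at 0 in all libraries. Their summed level ran from 44216 to 77087 CPM in control and from 25390 to 41819 CPM in the libraries labelled KO. Their presence does not exclude atrial tissue, whose markers are given below. CPM here are reads of a gene relative to the TMM-scaled library size. Over all genes, edgeR (quasi-likelihood, Benjamini-Hochberg) called 535 of 14466 at an adjusted p under 0.05. That number was 3 without KO 3 and 3628 without control 3. Of the libraries, KO 1 went against its label at Nmrk2 itself, so fold changes at the locus are given with and without it.

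The order along the chromosome, from lower to higher coordinates of mm10, was as follows. Eef2 lies at chr10:81176631-81182509 and Dapk3 at chr10:81183007-81193197, both on the plus strand. Atcayos (chr10:81194691-81208370, plus strand) spans Nmrk2 (chr10:81198170-81202037, minus strand) completely. Atcay (chr10:81204513-81230779, minus strand) overlaps the distal part of Atcayos by 3858 bases. After a gap, which holds the unlisted gene Zfr2, come Matk (chr10:81252935-81262981, plus strand), Mrpl54 (chr10:81264722-81266926, minus strand), Apba3 (chr10:81268172-81273247, plus strand), Tjp3 (chr10:81273188-81291581, minus strand) and Pip5k1c (chr10:81292963-81319974, plus strand). Apba3 and Tjp3 converge and overlap by 60 bases, of which 40 are exonic on both strands.

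Overlap matters for counting, since it is not given whether the authors' counting used strand. The RefSeq transcript of Atcayos in the table is 318 bases long. A GENCODE M21 model trimmed to the same ends gave 3 exons of 32, 76 and 210 bases, which sum to that length. In this model Nmrk2 sits inside an intron of Atcayos of 13130 bases (chr10:81194723-81207852), and the exons of both genes share 0 bases. Another GENCODE isoform of Atcayos, which the table does not hold, overlaps exons of Nmrk2 by 270 bases. The exons of Atcayos and Atcay share 56 bases on opposite strands.

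**Figure D1:**
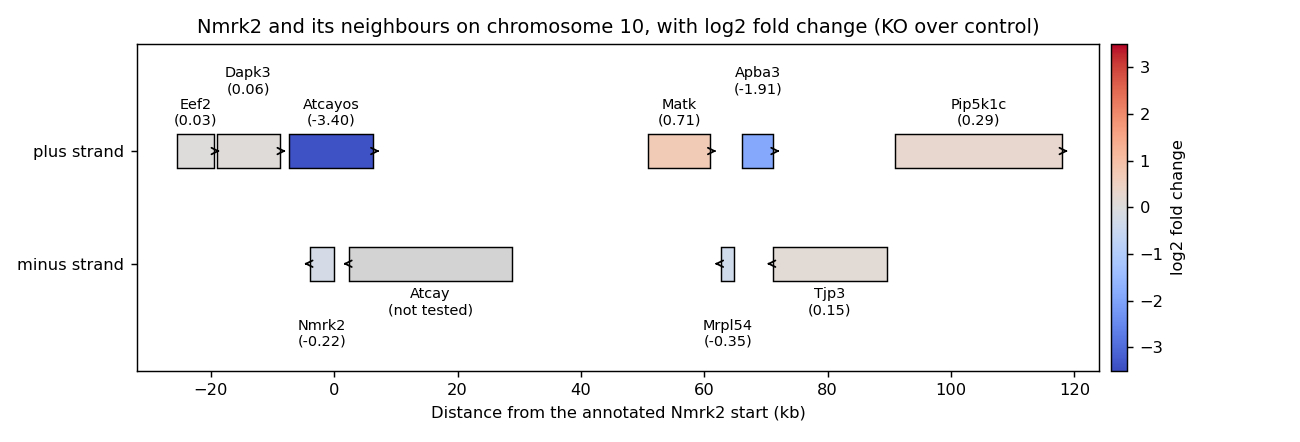
Map of the 10 genes by strand (vertical position) and distance from the annotated Nmrk2 start in kb (horizontal axis). Arrowheads show the direction of transcription, and colour and the number in parentheses give the log2 fold change of KO over control from edgeR, which is below -1 for Atcayos (-3.40) and Apba3 (-1.91) alone.

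Since Atcayos runs across Nmrk2 and its start in the opposite direction, the sequences before both starts are shown, each as the 250 bases that end just before the annotated RefSeq start (RefSeq, GRCm38.p6, which is the build mm10). The window of Nmrk2 is chr10:81202038-81202287 on the minus strand and falls within the intron of Atcayos. That of Atcayos is chr10:81194441-81194690 on the plus strand, between Dapk3 and Atcayos. Both run 5′ to 3′ in the direction of transcription, with capitals marking the letters TATAAA, the core of a TATA box.
Nmrk2: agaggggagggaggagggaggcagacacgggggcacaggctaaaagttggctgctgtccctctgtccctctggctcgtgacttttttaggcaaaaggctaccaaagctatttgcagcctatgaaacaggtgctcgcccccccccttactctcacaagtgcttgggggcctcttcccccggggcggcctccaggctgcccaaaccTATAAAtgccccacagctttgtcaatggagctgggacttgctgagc
Atcayos: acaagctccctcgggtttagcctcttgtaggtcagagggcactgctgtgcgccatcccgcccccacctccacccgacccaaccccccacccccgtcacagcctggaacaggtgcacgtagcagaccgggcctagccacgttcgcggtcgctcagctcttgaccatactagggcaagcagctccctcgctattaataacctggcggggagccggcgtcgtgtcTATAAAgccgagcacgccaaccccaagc
TATAAA was searched on both strands. It begins 46 bases before the RefSeq start in Nmrk2 and 28 bases before that in Atcayos. The matched GENCODE models start inside these windows, at 81202051 for Nmrk2 and 81194683 for Atcayos, so both distances depend on the annotation. Of 32851 promoter windows of the same length, 12.4% hold TATAAA on either strand, the window before Eef2 among them, and the window before Apba3 does not. E-boxes (CANNTG, a palindrome, present in 66.2% of windows) occur at 2 places before Nmrk2 and 1 place before Atcayos, and do not overlap TATAAA. A match is a description of these letters, not of a factor bound there.

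Nmrk2 (gene ID 69564) is the targeted gene and comes first. Its reads numbered 308, 270 and 118 in control 1, 2 and 3, or 15.1, 13.0 and 4.79 CPM. The libraries labelled KO 1, 2 and 3 held 808, 9 and 0 reads, or 27.9, 0.252 and 0 CPM, and the limit of 3 reads used here for a count of 0 corresponds to 0.110 CPM in KO 3. KO 1 thus lay above every control library, and KO 2 and KO 3 lay below all of them. The exact 95% Poisson intervals, which cover counting error only, were 26.0 to 29.9 CPM in KO 1, 13.5 to 16.9 CPM in control 1 and 0.115 to 0.478 CPM in KO 2, and did not overlap. The mean was 11.0 ± 5.46 CPM in control and 9.39 ± 16.0 CPM in KO (SD, n = 3 libraries each). Without KO 1, the mean of KO 2 and KO 3 was 0.0115 of the control mean. The log2 fold change of -0.22 (SE 1.70) became -6.29 (SE 1.15) without KO 1 and -3.65 with the library number as a block.

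Of the 10 genes in a list of atrial markers, Myl4, Myl7, Sln and Stard10 were highest in the same 3 libraries as Nmrk2, and the others were not. The atrial myosin light chains Myl4 and Myl7 and the atrial calcium pump inhibitor Sln are low in healthy ventricle. Myl4 reached 204 CPM in control 1, 176 CPM in control 2 and 316 CPM in KO 1, but was at 2.31, 6.24 and 2.52 CPM in control 3, KO 2 and KO 3. Myl7 was at 205, 162 and 127 CPM in the former 3 libraries and at 0, 1.15 and 0.219 CPM in the latter. Sln had 18.9 to 25.7 CPM in the former and at most 0.364 CPM in the latter. Dkk3 was highest in KO 1, 2 and 3 (170, 145 and 150 CPM, against 111, 89.8 and 40.9 CPM in control), as was Nppa, while Sbk3 and Sbk2 were higher in each control library than in KO 1. In control 3, Nmrk2 still had 118 reads while Myl7 and Sln had 0. The atrial list as a whole, 10 genes of which Bmp10 had 0 reads in all libraries, summed to 170 to 1073 CPM in control and to 2512 to 3184 CPM in KO, a range set largely by Nppa, which ventricle also expresses under stress. The part of atrial tissue in the level of Nmrk2 was not tested. Skeletal muscle, which also expresses Nmrk2, was checked with 14 markers. Their sum was 101, 83.5 and 22.5 CPM in control and 90.2, 64.5 and 60.2 CPM in KO, so it too was highest in the 3 libraries with the most Nmrk2. Mybpc2, the most abundant of the list, was at 59.1, 40.7 and 14.6 CPM in control and at 62.5, 49.9 and 43.4 CPM in KO. Its level in KO 2 and KO 3 was thus above that in control 2. Casq1, the calsequestrin of fast skeletal muscle, was at 36.8, 39.6 and 6.21 CPM in control and at 15.2, 5.51 and 3.76 CPM in KO. The libraries labelled KO all lay above control for 3 genes of the list and all below for 0. Over all genes tested the shares were 16.4% and 14.5%. Of the list, 2 genes had 0 reads in all libraries, and the part of skeletal muscle in the level of Nmrk2 was not tested.

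Atcayos (gene ID 69678) had 252, 221 and 137 reads in control and 69, 9 and 2 reads in KO 1, 2 and 3. On the CPM scale this was 12.4, 10.6 and 5.56 against 2.38, 0.252 and 0.0730. Every library labelled KO was below every control library, with KO 1 nearest to control. The means were 9.52 ± 3.54 and 0.903 ± 1.29 CPM (SD, n = 3 libraries each), and the log2 fold change was -3.40 (SE 1.08), or -5.78 (SE 0.70) without KO 1. Its fold change ranked 11 from the lowest of the 14466 genes tested.

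In contrast to Nmrk2, KO 1 did not exceed control at Atcayos. The reads of Nmrk2 per read of Atcayos were 1.22, 1.22 and 0.861 in control 1, 2 and 3 and 11.7 in KO 1. KO 2 held 9 reads of each gene, a ratio of 1, and KO 3 held 0 of Nmrk2 and 2 of Atcayos. These ratios are taken within a library and do not depend on the scaling between libraries. Per length, on the deposited FPKM scale, Atcayos exceeded Nmrk2 in every control library (34.9, 30.1 and 18.4 against 7.38, 6.35 and 2.75 FPKM), and in KO 1 the order was reversed (7.40 against 15.2 FPKM). FPKM of so short a transcript depend on how reads at its ends are counted.

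Atcay, on the minus strand next to Nmrk2, was close to the limit of detection. It had 3, 12 and 6 reads in control and 3, 0 and 8 in KO, at most 0.578 CPM, and was the only one of the 10 genes that did not pass the abundance filter. It is mainly a gene of neurons, and neuron and glia markers were scarce here, at 24.6 to 40.8 CPM in control and 64.3 to 99.3 CPM in KO for 17 genes together, of which Uchl1 made up 5.60 to 21.3 and 47.9 to 89.3 CPM. No difference in Atcay was detectable at this depth.

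**Figure D2:**
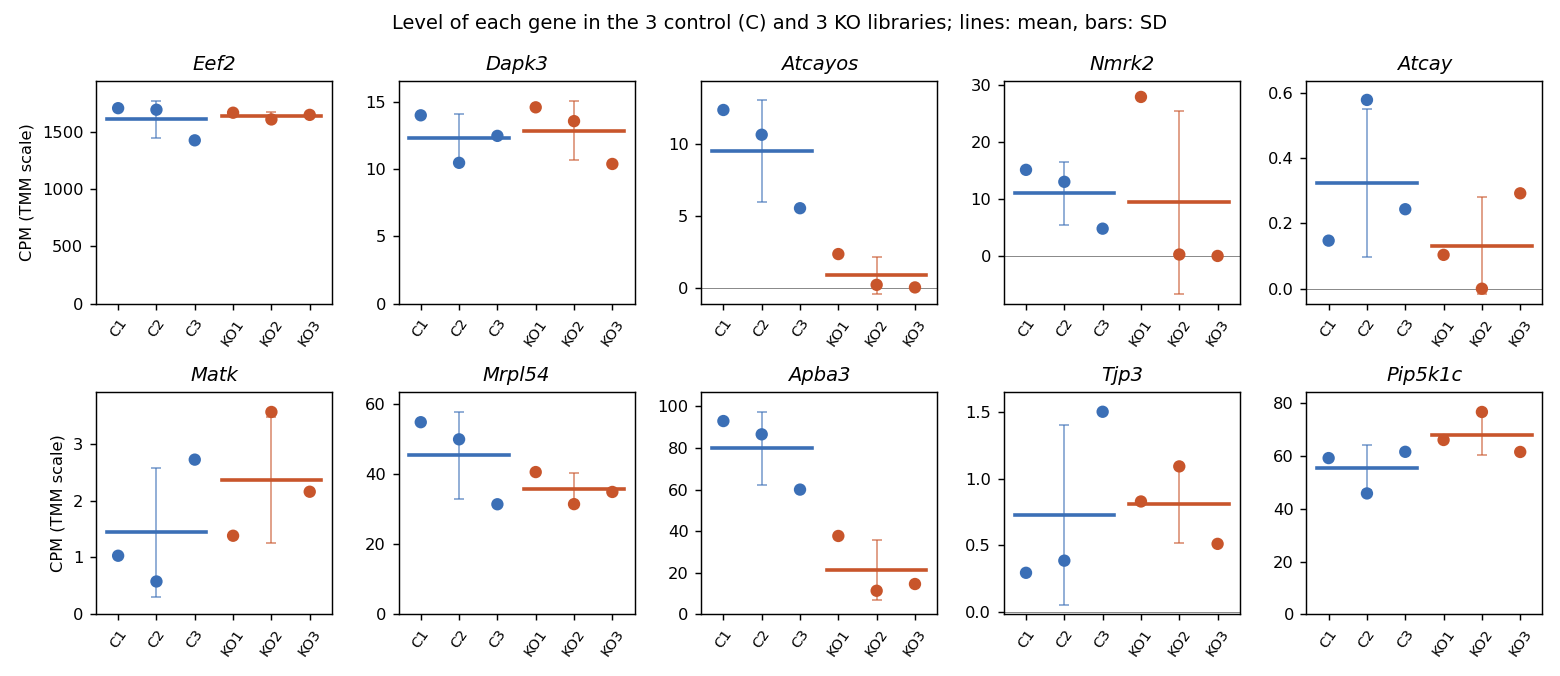
CPM of each gene (vertical axes, own scale per panel) in control 1 to 3 (C1 to C3) and KO 1 to 3, in the order of the genes on the chromosome. Points are libraries, lines are means and bars are SD over 3 libraries, and the groups are fully apart for Atcayos and Apba3, with KO 1 nearest to control in both.

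Apba3 (gene ID 57267), 66.1 kb from Nmrk2, was the other gene of the locus with a large difference. Reads numbered 1895, 1797 and 1479 in control and 1092, 406 and 400 in KO 1, 2 and 3. In CPM the control libraries were at 93.0, 86.6 and 60.0 and those labelled KO at 37.7, 11.4 and 14.6. The groups did not overlap, and KO 1 was again the highest of the libraries labelled KO. Means were 79.8 ± 17.5 and 21.2 ± 14.4 CPM (SD, n = 3 libraries each), 3.76-fold lower in KO, with a log2 fold change of -1.91 (SE 0.46), or -2.62 (SE 0.26) without KO 1. Its rank was 102 from the lowest of the 14466 genes tested.

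The genes on either side of Apba3 differed less. Mrpl54, which lies just before Apba3 on the other strand, had 54.8, 49.9 and 31.4 CPM in control and 40.6, 31.4 and 34.9 CPM in KO, with overlapping groups. Apba3 reads per read of Mrpl54 were 1.70, 1.73 and 1.91 in control and 0.929, 0.362 and 0.418 in KO. Tjp3, which overlaps the end of Apba3, had 6 to 37 reads in control and 14 to 39 in KO. The 10 ventricular cardiomyocyte markers summed to less in KO, in the ranges given above. For 7 of the 10, all libraries labelled KO lay below all control libraries, as 14.5% of all genes tested did. Actc1, Mybpc3 and Ryr2 overlapped between the groups. Fibroblast markers summed to 3946 to 9525 CPM in control and 17147 to 22846 CPM in KO. As CPM are relative, fewer cardiomyocytes, less RNA per cardiomyocyte and more RNA of other cells cannot be told apart in bulk tissue. Relative to 1000 CPM of the cardiomyocyte markers, Apba3 was at 1.21, 1.21 and 1.36 CPM in control and at 0.948, 0.448 and 0.349 CPM in KO. Atcayos was at 0.126 to 0.160 against 0.0599, 0.00992 and 0.00175 CPM, and Mrpl54 was higher in KO (0.835 to 1.24) than in control (0.699 to 0.711). The share of all genes apart on this scale is not given here. The marker sum is led by Myh6 and is not a measure of cell number. The part of cardiomyocyte content in these levels was not tested.

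Of the 9 genes of the locus that passed the abundance filter, 0 were called by edgeR at an adjusted p under 0.05, where 3.7% of all genes tested were. At an unadjusted p under 0.05 there were 2, Atcayos and Apba3, against 25.9% of all genes. DESeq2 and limma on log2(FPKM + 1) called these same genes, and 18.2% and 5.97% of all genes, whereas limma on log2(FPKM + 0.1) called Apba3 and not Atcayos. Without KO 1 edgeR called Atcayos and Apba3 and 0.597% of all genes, and without control 3 it called Apba3 and Mrpl54 and 24.6% of all genes. All 3 libraries labelled KO lay below all 3 control libraries for 2 of the 9, where 14.5% of the genes tested did so and 30.9% were apart in either direction. The same 2 had a log2 fold change below -1, where 5.1% of all genes did. Nothing is read from these counts, because the genes had been chosen with these libraries in view.

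The remaining genes differed little between the genotypes. Eef2 had 1706, 1692 and 1425 CPM in control and 1666, 1607 and 1647 CPM in KO. The groups overlapped, with a log2 fold change of 0.03 (SE 0.16). That order depends on scaling. As deposited FPKM, Eef2 was at 495, 491 and 487 in control and at 538, 550 and 530 in KO, with no overlap and a log2 fold change of 0.14 on log2(FPKM + 1), and it was 0.14 with library totals in place of TMM factors too. Dapk3 had 14.0, 10.5 and 12.5 CPM in control and 14.6, 13.5 and 10.4 CPM in KO (log2 fold change 0.06, SE 0.20). Pip5k1c was at 59.2, 45.8 and 61.6 CPM in control and at 66.1, 76.7 and 61.5 CPM in KO (0.29, SE 0.15). For Mrpl54 the log2 fold change was -0.35 (SE 0.22). Without KO 1 these log2 fold changes were 0.02 for Eef2, -0.04 for Dapk3, 0.32 for Pip5k1c and -0.45 for Mrpl54. Levels of these 4 genes overlapped between the groups on the CPM scale.

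Matk and Tjp3 were low and overlapped between the genotypes. Matk had 21, 12 and 67 reads in control and 40, 127 and 59 in KO, or 1.03, 0.578 and 2.72 against 1.38, 3.56 and 2.15 CPM. Control 3 and KO 2 were the highest libraries. The log2 fold change of 0.71 (SE 0.66) moved with them, being 1.55 without control 3 and 0.29 without KO 2, and it was 0.98 without KO 1. The same 2 libraries had the highest sums of 15 blood and immune markers, 1926 and 2155 CPM, against 513 and 757 CPM in control 1 and 2 and 1476 and 1252 CPM in KO 1 and 3, led by the lysozyme gene Lyz2 and the receptor gene Csf1r. The part of blood cells in the level of Matk was not tested. Tjp3, an epithelial gene, had 0.294, 0.385 and 1.50 CPM in control and 0.829, 1.09 and 0.511 CPM in KO, and control 3 was highest. Its log2 fold change was 0.15 (SE 0.76), 0.14 without KO 1 and 1.25 without control 3. Sums of 10 epithelial markers were 5.99, 15.7 and 22.9 CPM in control and 12.6, 265 and 19.2 CPM in KO, the value of KO 2 coming mostly from the lung surfactant gene Sftpc at 197 CPM. Mesothelial markers were highest in control 3, at 203 CPM against 30.0 to 58.9 CPM in the others. The part of such tissue in the level of Tjp3 was not tested.

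Per length, the order of levels in control was Eef2 (491 ± 4.18 FPKM), Mrpl54 (72.3 ± 14.1), Apba3 (35.6 ± 4.92), Atcayos (27.8 ± 8.50), Pip5k1c (12.5 ± 2.86), Dapk3 (6.76 ± 1.18), Nmrk2 (5.49 ± 2.43), Matk (0.744 ± 0.668), Tjp3 (0.238 ± 0.240) and Atcay (0.0797 ± 0.0498), each as mean and SD over 3 libraries. Neighbours in this order whose ranges over libraries overlapped were Apba3 and Atcayos, Dapk3 and Nmrk2, Matk and Tjp3, and Tjp3 and Atcay. In KO the mean of Apba3 was 10.2 ± 6.73 FPKM and that of Atcayos 2.79 ± 4.01 FPKM, which placed both below Pip5k1c (16.4 ± 2.45).

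The locus has 20 transcript entries in the table, 2 of which had 0 reads in all libraries and 12 of which passed the abundance filter. For 4 of these 12 the genotypes did not overlap in CPM, where 25.3% of all single transcripts tested did not. These were the only transcripts of Atcayos and Apba3 and 2 variants of Dapk3. The sources used here do not say how the authors divided reads among variants of a gene, so values of single variants are less certain than gene sums.

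Dapk3 was flat as a gene but not in its variants. Variant 3 had 0, 0 and 1 reads in control and 72, 42 and 16 reads in KO, or 0, 0 and 0.326% against 17.1, 8.68 and 5.63% of the gene's reads. Variant 2 went the other way, with 7.37, 12.4 and 6.51% in control and 3.32, 3.31 and 5.63% in KO. Variant 1 carried most reads throughout, 79.6 to 93.2%. The variants begin at different places, variant 3 starting 256 bases and variant 2 starting 911 bases downstream of variant 1. With 16 to 72 reads in KO, the share of variant 3 rests on few reads, though each of the libraries labelled KO had more than any control library.

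Pip5k1c and Matk differed in variants between libraries of the same genotype. Variant 2 of Pip5k1c held 43.7 and 42.1% of the gene's reads in control 1 and control 2, 75.4% in control 3 and 65.0 to 71.3% in KO. Control 3 therefore sided with the libraries labelled KO, not with the other controls. Variant 4 of Pip5k1c had 120 reads in control 2 and 110 in KO 2, but at most 3 in any other library. All Matk reads were in variant 1 in control 1, control 2, KO 1 and KO 3. In control 3 and KO 2, the libraries with the most Matk, 16.4 and 0.787% were in variant 1, and variants 2 and 3 held the rest. For Tjp3, variant 1 had 12 reads in KO 1 and 0 in every other library.

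**Figure D3:**
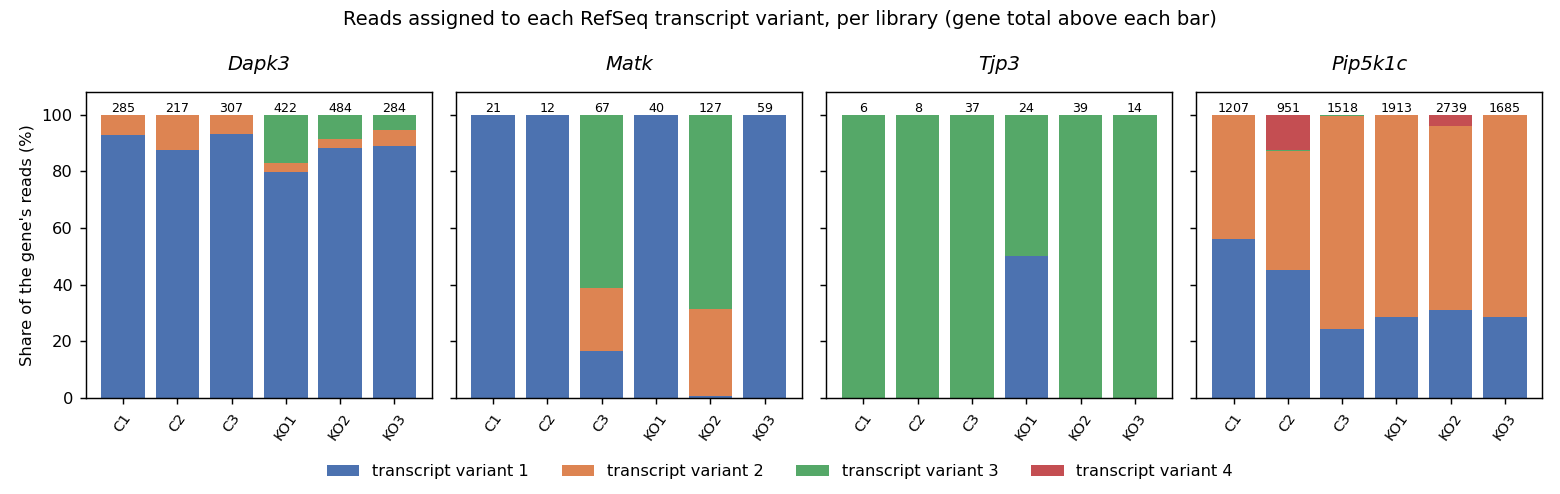
Share of a gene's reads in each RefSeq transcript variant (percent, vertical axis) for Dapk3, Matk, Tjp3 and Pip5k1c in control 1 to 3 (C1 to C3) and KO 1 to 3, with the gene's read total above each bar. Dapk3 variant 3 appears in the libraries labelled KO (5.63 to 17.1%), and Matk variants 2 and 3 appear in control 3 and KO 2.

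Other genes around Nmrk2 were chosen by position and not by their values. Some of them, such as Pias4 (39.3 kb) and Zfr2 (42.5 kb, by gene centre), lie closer to Nmrk2 than Apba3, Tjp3 and Pip5k1c. Within 500 kb of Nmrk2 lay 54 other genes, of which 42 were tested. Of the 42, 0 were called by edgeR, against 3.7% of all genes tested. As edgeR called 0 of the listed genes too, this count cannot show whether differences are limited to those. All libraries labelled KO lay below all control libraries for 4 of the 42 and above them for 5. Over all genes tested the shares were 14.5% and 16.4%. At an unadjusted p under 0.05 there were 7 of 42, where 25.9% of all genes passed, and DESeq2 called 2 (Lingo3 and Aes) and limma on log2(FPKM + 1) called 1. Their median log2 fold change was -0.13, beside 0.01 over all genes. Without control 3 edgeR called 7 of them, where it called 24.6% of all genes.

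Closest to Nmrk2 among the 42 were Pias4, a SUMO ligase, at 10.8 ± 0.992 CPM in control against 9.94 ± 0.457 CPM in KO, and Zfr2, a zinc finger gene between Atcay and Matk, at 2.79 to 4.79 CPM in control and 2.80 to 3.91 CPM in KO. Next came the transcription factor gene Zbtb7a, at 65.9 ± 6.08 against 61.0 ± 8.21 CPM, and the MAP kinase kinase gene Map2k2, at 77.9 ± 11.2 against 62.8 ± 6.28 CPM (SD, n = 3 libraries each). By edgeR their adjusted p were 0.663, 0.888, 0.655 and 0.233. Only Lingo3 and Jsrp1 of the 42 differed by more than 1 on the log2 scale, as 11.0% of all genes did. Lingo3, a transmembrane gene 362 kb away, was at 18.3, 19.3 and 13.6 CPM in control and at 5.11, 1.90 and 6.76 CPM in KO and had an edgeR log2 fold change of -1.90 with an adjusted p of 0.0664, and Jsrp1 was at 0.429 ± 0.270 against 1.22 ± 0.114 CPM (adjusted p = 0.213 by edgeR).

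**Figure D4:**
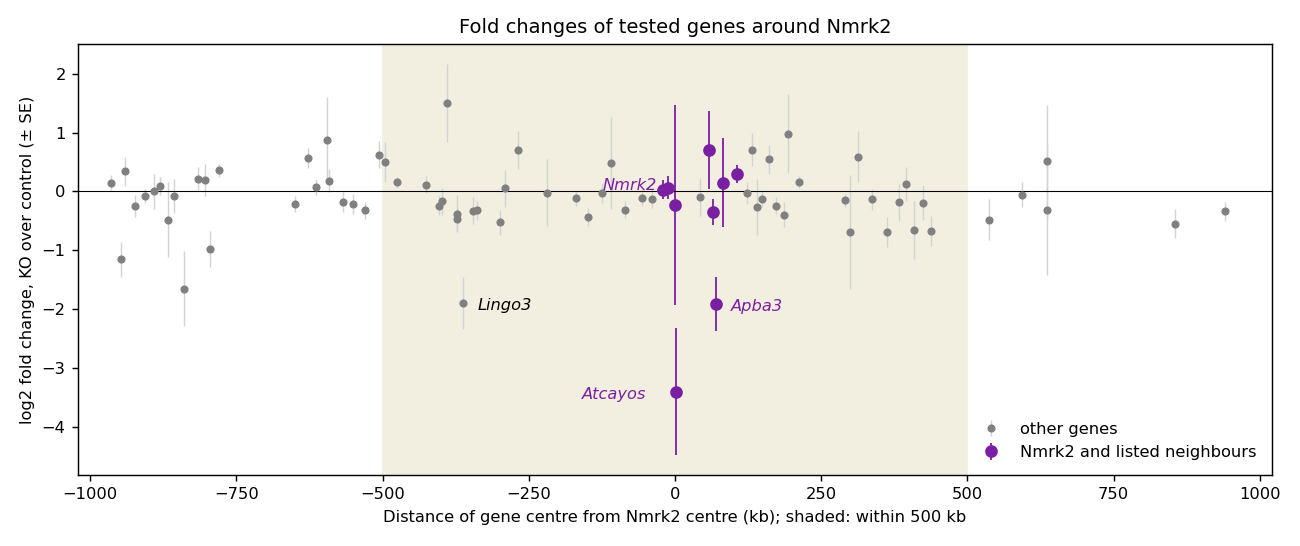
Log2 fold change of KO over control (vertical axis, bars are SE from edgeR) against the distance of each tested gene's centre from the centre of Nmrk2 in kb. Nmrk2 and the listed neighbours are large purple points and other genes small grey ones, and Atcayos (-3.40), Apba3 (-1.91) and Lingo3 (-1.90) lie lowest within the shaded 500 kb.

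Likeness was measured as Pearson's r of log2(CPM + 1) over the 6 libraries, a description over libraries that share genotype and tissue makeup. Genes most like Nmrk2 were Exoc4, Bpgm, Rpl7l1, Cog8 and C2cd2, with r from 0.972 to 0.986. Exoc4, a subunit of the exocyst, ran in parallel at 87.9, 93.0, 80.9, 103, 57.3 and 59.5 CPM in control 1 to 3 and KO 1 to 3, a far narrower range than that of Nmrk2. For Atcayos the closest were Mrpl58, Prorsd1, Iba57, Ccdc85c and Ppil1 (r from 0.991 to 0.999). For Apba3, added to this measure after its values had been seen, they were Prorsd1, Mrpl58, Rps19bp1, Alad and Tuba4a (r from 0.991 to 0.993). Tuba4a, an alpha tubulin gene, had 623, 642 and 416 CPM in control and 286, 80.5 and 140.1 CPM in KO. Atcayos and Apba3 were close to each other (r = 0.988), and Nmrk2 was less close to either (0.784 and 0.814). Each list is the top of 11111 genes compared over 6 libraries. Atcayos and Apba3 were both lower in KO, with KO 1 nearest to control, which by itself gives a high r. Shared regulation was not tested.

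The pathway of NRK-2 was looked at through 24 genes of NAD synthesis and salvage other than Nmrk2, of which 21 were tested. By edgeR 0 rose and 1 fell, the mitochondrial NAD kinase Nadk2, against 2.61% and 1.09% of all genes. Nadk2 was at 90.6 ± 17.5 CPM in control and 45.1 ± 9.28 CPM in KO (SD, n = 3 libraries each, adjusted p = 0.0498 by edgeR). With DESeq2 size factors, or without any 1 library other than control 3, 0 of the NAD genes were called, and without control 3 there were 8. Their median log2 fold change was -0.13. Nmrk1, which encodes the other riboside kinase, was at 5.61 ± 1.50 CPM in control and 6.21 ± 1.82 CPM in KO (SD, n = 3 libraries each, adjusted p = 0.81 by edgeR). Nampt, the rate-limiting enzyme of salvage from nicotinamide, was at 289 ± 28.3 against 174 ± 36.8 CPM (adjusted p = 0.072 by edgeR).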

How the data were processed

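The deposited table lists 36780 RefSeq transcripts and holds, per the file headers, read counts and FPKM of 6 libraries. The submitters' processing notes name HISAT2, Bowtie2 and mm10 and say nothing more of them. The labels' protocols name a TruSeq stranded kit for total RNA. No source used here names the counting program or says whether it used strand. Deposited FPKM were 0.973 to 0.988 of the value recomputed from count, length and library total, over the 49 values of at least 50 reads at the locus. Columns named C were given to the Control sample and columns named KO to the NRK-2 KO sample.

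Counts were summed per gene symbol and tested with edgeR 4.0.16 in R 4.3.3 (quasi-likelihood, TMM, filterByExpr, Benjamini-Hochberg adjustment over all genes). The fit was checked on simulated counts without differences in tissue makeup between libraries, so the check does not cover such differences here. Alternatives were other scalings, no abundance filter, DESeq2 1.42.0, limma 3.58.1 on log2(FPKM + 1) and log2(FPKM + 0.1), windows of 250 and 1000 kb, single transcripts, a block for the library number and leaving out each library. Library numbers showed no pairing of the columns, which so few libraries cannot exclude. Gene models were GENCODE M21, and coordinates are 1-based. Members, lists and tests were chosen with earlier results of these data known. Named beyond the 10 listed genes were the 4 nearest tested genes and any called within 500 kb, called NAD genes with Nmrk1 and Nampt, the 5 most alike genes averaging 5 CPM or more (predicted and small RNA genes left out), and the leading markers. Apba3's likeness, Lingo3, Aes, Jsrp1, and the atrial, skeletal muscle and cardiomyocyte markers other than the leading ones were chosen after their values were seen. Fibroblast, endothelial and adipocyte markers summed to 3946 to 9525, 990 to 1350 and 365 to 745 CPM in control and to 17147 to 22846, 992 to 1316 and 306 to 554 CPM in KO.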

Additional observations from a re-analysis of the deposited data

How the results depend on the processing

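Leaving out 1 library at a time moved the number of genes called from 535 to between 3 and 3628, that of other genes within 500 kb from 0 to between 0 and 7, that of NAD genes from 1 to between 0 and 8, that of locus genes whose groups did not overlap from 2 to between 2 and 7, and that of their transcripts from 4 to between 4 and 8. The highest value of each came without control 3. With all libraries, 30.9% of all genes and 25.3% of all single transcripts tested had groups that did not overlap. These shares are not given here with a library left out, so nothing is read from the counts of 7 and 8. Of 2468 genes called by DESeq2, 2 lay within 500 kb and 5 were NAD genes, and limma called 864 genes on log2(FPKM + 1), with 1 and 2, and 807 on log2(FPKM + 0.1), with 0 and 2. NAD genes called numbered 0 with DESeq2 size factors, 0 without the abundance filter and 2 with library totals. As gene sums in place of single transcripts, the count of 4 was 2. With the library number as a replicate block, 6 genes, 0 NAD genes and 0 genes within 500 kb were called. Same-numbered libraries correlated at 0.307, -0.330 and -0.352 in their deviations from the genotype means. The number thus showed no pairing, but so few libraries, which differ in tissue makeup, cannot exclude it. The median of all genes, 0.01 on the log2 scale, was 0.11 with library totals and 0.13 with limma on log2(FPKM + 0.1). Atcayos ranged from -5.78 to -2.87 and Apba3 from -2.62 to -1.61 over 13 alternatives each, below 0 in all. Nmrk2 ranged from -6.29 to 0.35. Tjp3 was 1.25 without control 3 and 0.15 with it. Depth limits Atcay, Tjp3 and Matk, with 0 to 127 reads per library.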
